A study of Mus musculus with 12 samples.

Results

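The genes described here are 38 genes of fatty acid oxidation and ketone body metabolism in mouse liver cells. They were chosen as a list of named enzymes, carriers and their common companions of the mitochondrial and peroxisomal routes. The rule names genes and uses no measured value, but earlier results of these data were known when the list was made. The gene symbols were mapped to Ensembl identifiers. All 38 were among the 53715 genes of the deposited count table, and all 38 were among the 17779 genes that had more than 10 counts in any library and were tested. RNA was sequenced from 3 groups of 4 replicates each, all from the C57BL/6JOlaHsd strain. Hepatoblasts were Dlk1+ progenitors of stage E14.5, enriched on magnetic columns from pooled embryonic livers and lysed at once. Diff. hepatocytes were grown from such hepatoblasts for 4 days by culture protocol 1, on fibronectin under a differentiation medium with serum, insulin, transferrin, selenium, dexamethasone and Matrigel. Mature hepatocytes came from collagenase-perfused livers of male mice aged 8 to 12 weeks, fed chow without restriction, and were also lysed at once, so age, culture and, in the adult animals, sex change together between the groups and cannot be told apart. The comparisons ask how far this metabolic program of the adult hepatocyte was present in the embryonic progenitor and in the cell made from it in culture.

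Hepatocytes burn fatty acids in mitochondria and in peroxisomes. A fatty acid is bound by carrier proteins, activated to an acyl-CoA, and moved into the mitochondrion as a carnitine ester, where repeated rounds of dehydrogenation, hydration, a further dehydrogenation and thiolysis shorten it and release acetyl-CoA. Peroxisomes shorten very long, branched and dicarboxylic chains. The liver turns much of the acetyl-CoA into ketone bodies, which it exports but does not itself use, because adult hepatocytes make almost none of the transferase that other tissues need to burn them. Many of these genes are known targets of the nuclear receptor PPARα, which pairs with RXR on a direct repeat of the hexamer AGGTCA with a spacer of a single base, called DR1.

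The promoters of 4 members are shown as examples and were not picked by a rule on their changes. Fabp1, Acot12 and Cd36 hold a DR1 match with 2 mismatches or fewer, as do 7 of the 32 members with promoter windows. The examples are thus richer in matches than the members as a whole. Among the other members, Pex11a and Cpt1a had best matches with 5 and 4 mismatches. Sequence outside the promoter windows was not searched. Whether matches go with the changes of the genes was not tested. Fabp1 was far higher in adult cells than in the other groups, Acaa1b and Acot12 rose in both hepatocyte groups, and Cd36 rose to overlapping levels in both. The bases are those before the RefSeq start of each gene, on assembly GRCm38.p6 and the strand of the gene, and they end before the start or before any annotated exon. Capitals mark the best match to DR1, a pair of AGGTCA with any single base between them, which in all of these lay on the opposite strand and so reads as its reverse complement. The match of Fabp1 began 67 bases and that of Acot12 110 bases before the start, with 1 mismatch each, and that of Cd36 began 63 bases before it with 2 mismatches. The window of Acaa1b held no match with 2 mismatches or fewer.
Fabp1, chr6:71199629-71199826, plus strand: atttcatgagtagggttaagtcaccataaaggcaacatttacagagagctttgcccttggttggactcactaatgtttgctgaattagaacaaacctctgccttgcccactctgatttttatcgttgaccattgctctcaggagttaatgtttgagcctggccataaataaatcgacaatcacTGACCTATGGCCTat
Acot12, chr13:91741271-91741511, plus strand: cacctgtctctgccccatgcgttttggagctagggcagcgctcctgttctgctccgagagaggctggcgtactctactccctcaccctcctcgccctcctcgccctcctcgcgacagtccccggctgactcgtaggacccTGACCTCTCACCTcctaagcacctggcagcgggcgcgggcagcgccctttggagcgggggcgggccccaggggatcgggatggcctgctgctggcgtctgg
Cd36, chr5:17835897-17836146, minus strand: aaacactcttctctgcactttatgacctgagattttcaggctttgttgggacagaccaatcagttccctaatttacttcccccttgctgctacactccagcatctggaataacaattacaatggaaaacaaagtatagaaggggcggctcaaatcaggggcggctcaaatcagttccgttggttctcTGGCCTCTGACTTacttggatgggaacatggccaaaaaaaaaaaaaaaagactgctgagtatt
Acaa1b, chr9:119157094-119157343, minus strand: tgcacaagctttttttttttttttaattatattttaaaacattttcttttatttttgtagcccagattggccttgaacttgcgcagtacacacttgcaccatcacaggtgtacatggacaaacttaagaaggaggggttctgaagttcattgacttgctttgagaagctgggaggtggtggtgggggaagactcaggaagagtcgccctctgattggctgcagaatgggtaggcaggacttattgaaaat

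Windows of 300 bases, from 250 before to 50 after the start, were found in RefSeq for 32 of the 38 members, 35 windows in all, since Acox2, Acsl1 and Bdh1 have 2 each. A DR1 match on either strand with at most 1 mismatch in its 12 fixed bases was found in 2 of these 35 windows, those of Acot12 and Fabp1, or 5.71%, against 0.554% of all 32851 windows of this length. With at most 2 mismatches, 7 of 35 windows (20%) held a match against 3.86% of all windows, the others being 1 of those of Acox2 and those of Cd36, Echs1, Etfa and Slc25a20. A lone AGGTCA, which a DR1 match can contain, stood in 7 of the 35 member windows (20%) and in 16.3% of all windows. A match is a likeness of letters and was not tested for binding.

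The comparisons share groups, so each pair of them has 4 libraries in common and their values are given side by side. Counts on genes per library lay between 19581551 and 25216977. Hepatocyte markers (8 genes, among them Ttr, Hnf4a and Tat) summed to 9215 to 15445 CPM (gene counts relative to a library size scaled by TMM) in hepatoblasts, to 42948 to 54756 CPM in the cultured cells and to 50855 to 57434 CPM in the adult cells. The 4 hepatoblast markers differed in the cultured cells. Dlk1 had 2461 to 4199 CPM in hepatoblasts and 88.3 to 99.1 CPM in the cultured cells, Igf2 456 to 782 CPM and 154 to 230 CPM, Afp 27580 to 46486 CPM and 15959 to 20419 CPM, and H19 10392 to 18040 CPM and 19222 to 24537 CPM. In mature hepatocytes the 4 together had 64.9 to 107 CPM. Hepatoblast replicate 1 stood apart. It was the highest of its group for 10 of 10 erythroid, 9 of 9 macrophage and 8 of 8 endothelial markers, with erythroid sums of 3067 CPM against 377 to 622 CPM in the other hepatoblast libraries, and it was the lowest of its group for 32 of the 38 members. Replicate 1 of Diff. hepatocytes was the highest of its group for 9 of 9 macrophage, 6 of 7 bile duct and 7 of 9 mesenchymal markers, with mesenchymal sums of 3282 CPM against 1322 to 2148 CPM, and it was the lowest for 31 of the 38 members. Mesenchymal sums in culture (1322 to 3282 CPM) overlapped embryonic ones (779 to 1392 CPM) and exceeded adult ones (59.4 to 76.5 CPM). Bile duct sums in culture (114 to 305 CPM) exceeded embryonic (27.4 to 36.9 CPM) and adult ones (37.3 to 65.9 CPM). Endothelial sums went the other way (4.93 to 10.8 CPM in culture, 111 to 209 CPM in the adult). So did erythroid sums (7.15 to 29.7 and 135 to 185 CPM). The part of these cells in the members' levels was not tested. In bulk RNA fewer cells of a type and less RNA per cell cannot be told apart.

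In Diff. hepatocytes, 15 of the 38 members were called higher and 3 lower than in hepatoblasts. Calls required an adjusted p below 0.01 together with a log2 fold change beyond 1 in either direction (quasi-likelihood test of edgeR, adjusted by Benjamini-Hochberg over all tested genes, as for every adjusted p of a gene given here). Among all tested genes 28.9% were called in this comparison, 14.9% higher and 14.0% lower, so the share of members called higher, 39.5%, was above that background and the share called lower, 7.89%, below it. The members' median log2 fold change was 0.43, against -0.01 over all tested genes. The members called higher were those that admit fatty acids and acyl groups (Cd36, Acsl1, Cpt1a), the medium-chain dehydrogenase Acadm, the auxiliary enzymes Eci2 and Decr2, 6 peroxisomal genes, the thioesterase Acot12, and Pdk4 and Vnn1. Most enzymes of the mitochondrial spiral itself were not called. Without replicate 1 of hepatoblasts and replicate 1 of Diff. hepatocytes, a choice made after their markers had been seen, 15 members were called higher and 4 lower.

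In mature hepatocytes, 25 members were called higher and 4 lower than in hepatoblasts. The background was 44.8% of all tested genes called, 20.1% higher and 24.7% lower, and 65.8% of the members were called higher and 10.5% lower. Their median log2 fold change was 1.73 against -0.15 over all tested genes. The 4 lower members were Cpt1b, Oxct1, Acot1 and Acot2. Compared directly with mature hepatocytes, Diff. hepatocytes had 23 members called lower and 4 higher, with a median of -1.27 against 0.09 over all tested genes. Of all tested genes 35.8% were called in that comparison, 15.6% lower and 20.2% higher. The 4 members called higher in the cultured than in the adult cells were Cpt1b, Oxct1, Acot2 and Pdk4.

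The choice of scaling bears on the smaller of these changes. With library totals in place of TMM the median of all tested genes moved by -0.32, -0.85 and 0.53 on the log2 scale in the comparisons in the order given, and the members' medians moved with it. Relative to the median of all tested genes the members' medians were 0.44, 1.88 and -1.36 with TMM and 0.45, 1.88 and -1.36 with library totals. With library totals 12 members were called higher and 4 lower in Diff. hepatocytes than in hepatoblasts, 17 higher and 4 lower in mature hepatocytes than in hepatoblasts, and 4 higher and 11 lower in Diff. than in mature hepatocytes. The shares of all tested genes called, as stated in this text, hold for TMM. They are not a background for counts with library totals, here or below. Counted without any scaling, the 38 members took 0.584% ± 0.0582 of the gene counts of hepatoblasts, 0.625% ± 0.0642 of those of Diff. hepatocytes and 1.48% ± 0.0728 of those of mature hepatocytes (SD, n = 4). The difference between Diff. hepatocytes and hepatoblasts did not pass the test (two-sided exact permutation test over 70 assignments, p = 0.457, adjusted p = 0.457 over 12 comparisons of shares). Both differences from mature hepatocytes had p = 0.0286 (adjusted p = 0.0312, exact permutation test), the smallest value that 4 against 4 libraries allow. Fabp1 alone held 5092 to 8074 counts per hepatoblast library, 3919 to 7819 per cultured library and 98060 to 108486 per mature library. A large part of the higher adult share was therefore this 1 gene.

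**Figure D1:**
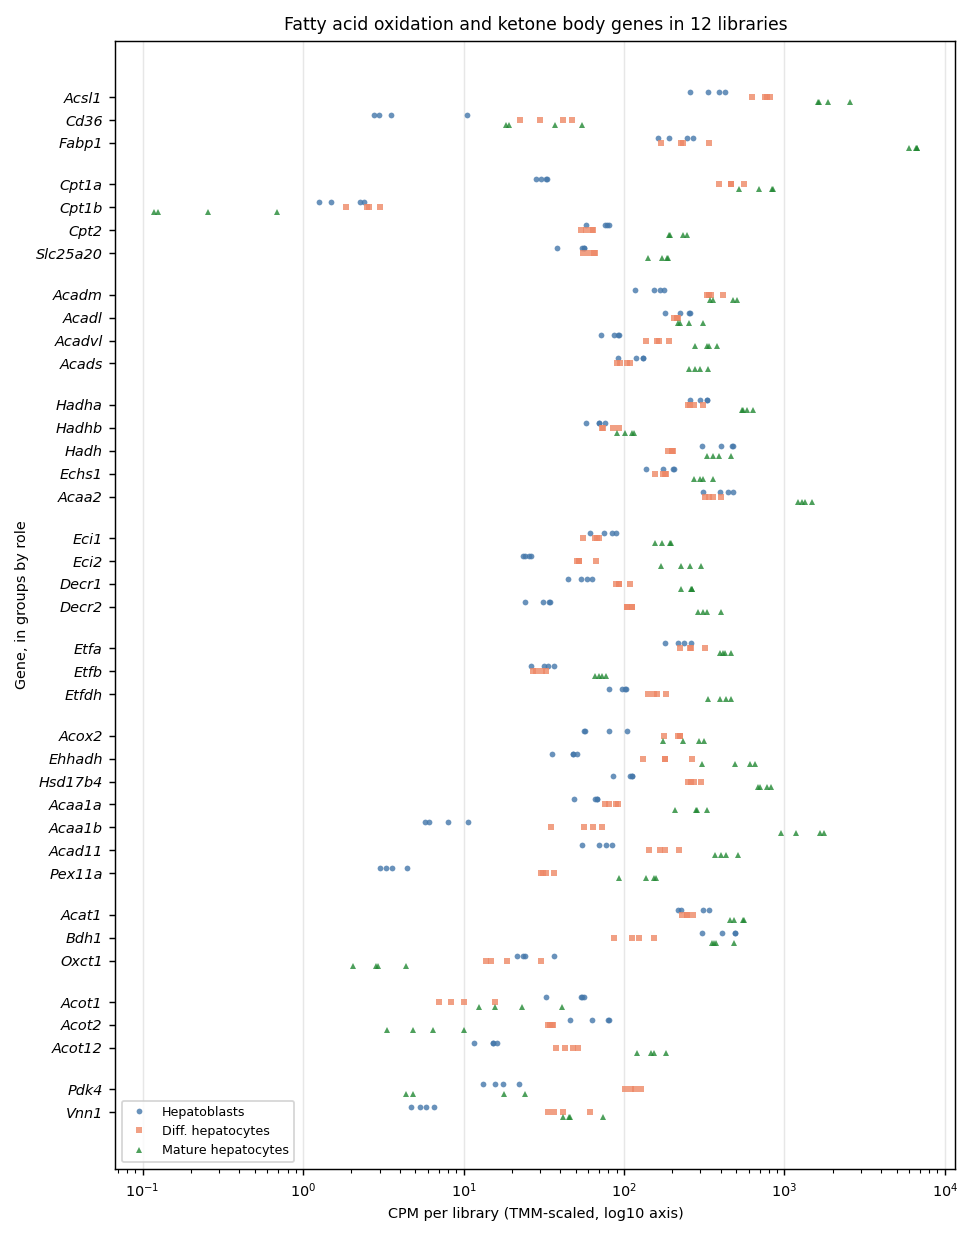
CPM of each of the 38 genes in each of the 12 libraries on a log10 axis, with genes as rows in groups by role, circles for hepatoblasts, squares for Diff. hepatocytes and triangles for mature hepatocytes. Mature hepatocytes sit to the right for most genes, by the widest gap for Acaa1b and Fabp1, and to the left for Cpt1b, Oxct1 and Acot2.

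**Figure D2:**
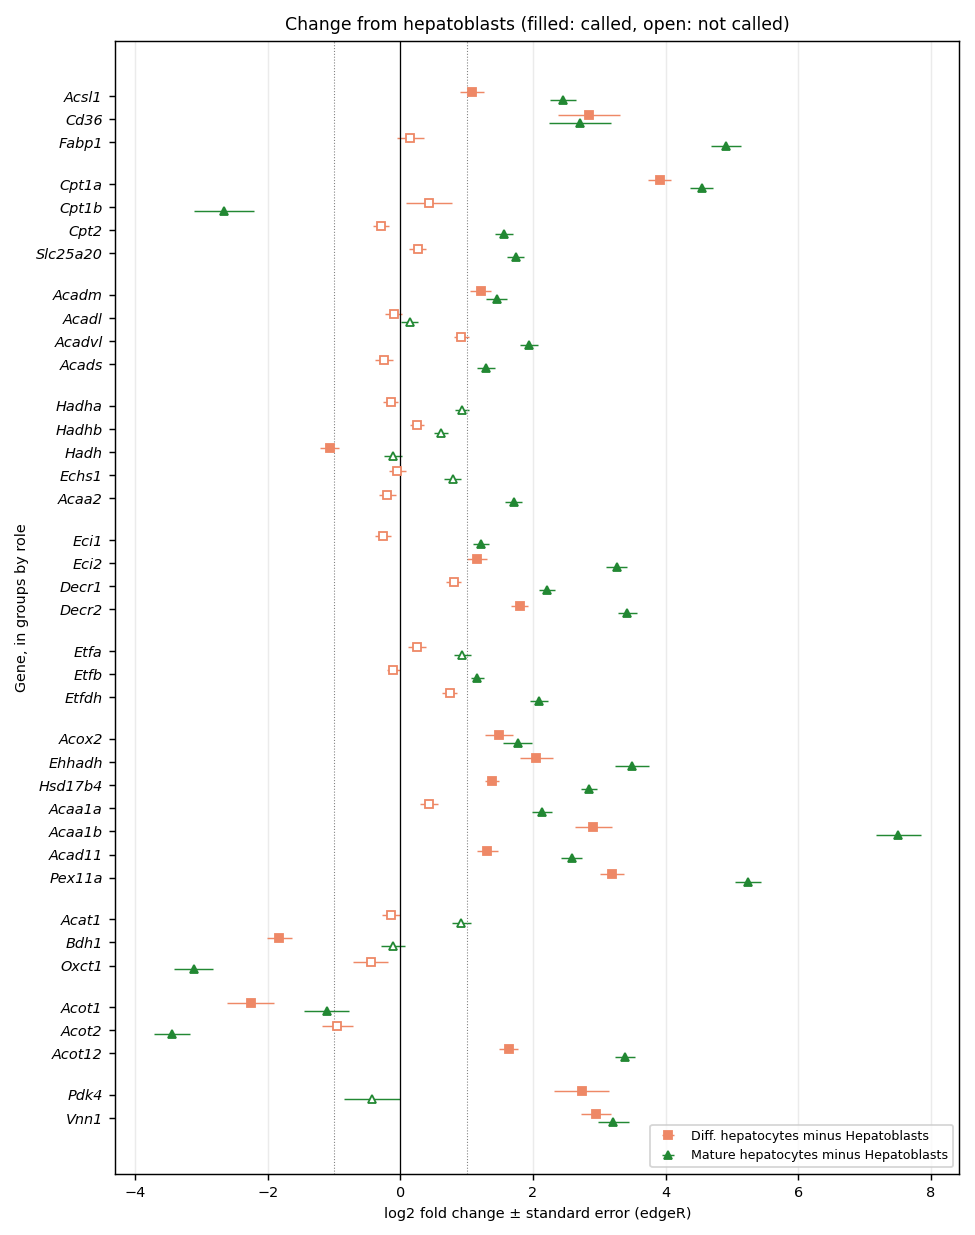
Log2 fold change against hepatoblasts with its standard error (edgeR) for each gene as a row, with squares for Diff. hepatocytes and triangles for mature hepatocytes, filled where called and open where not. The dotted lines mark log2 fold changes of -1 and 1, and 18 squares and 29 triangles are filled.

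The genes of uptake, binding and activation were higher in mature hepatocytes than in hepatoblasts in 3 of 3 cases, and 2 of 3 were called higher in Diff. hepatocytes (1 of 3 with library totals). For this role and each role below, 14.9% of all tested genes were called higher in culture and 20.1% in the adult with TMM. Fabp1, the liver fatty acid binding protein (ENSMUSG00000054422, chr6:71199827-71205023 on the plus strand, here and below on GRCm38), had 164, 192, 246 and 268 CPM in hepatoblast replicates 1 to 4, 169, 337, 226 and 235 CPM in Diff. hepatocytes and 6724, 6655, 5966 and 6735 CPM in mature hepatocytes. The embryonic and cultured libraries overlapped and all lay far below the adult ones, with the adult mean 30-fold that of hepatoblasts (log2 fold change 4.91, standard error 0.23, adjusted p = 6.47e-10). The cultured cells did not pass the test against hepatoblasts (log2 fold change 0.15, standard error 0.20, adjusted p = 0.527). Acsl1, the main long-chain acyl-CoA synthetase of liver, which activates fatty acids (ENSMUSG00000018796, chr8:46471037-46536051 on the plus strand), had 259, 334, 391 and 427 CPM in the hepatoblast libraries, 626, 818, 752 and 783 CPM in Diff. hepatocytes and 2560.4, 1881, 1632 and 1617 CPM in mature hepatocytes. These groups stood in steps without overlap, with log2 fold changes of 1.08 ± 0.18 in Diff. hepatocytes (standard error, adjusted p = 0.00018) and 2.45 ± 0.19 in mature hepatocytes (adjusted p = 6.15e-08). The call in Diff. hepatocytes was lost without hepatoblast replicate 1, where the value was 0.97, and with library totals, where it was 0.77.

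Cd36, a membrane receptor that takes up long-chain fatty acids (ENSMUSG00000002944, chr5:17781690-17888801 on the minus strand), had 10.5, 3.52, 2.98 and 2.78 CPM in the hepatoblast libraries, 47.6, 41.7, 30.1 and 22.4 CPM in Diff. hepatocytes and 37.1, 18.4, 19.3 and 55.1 CPM in mature hepatocytes. Both hepatocyte groups were above every hepatoblast library and overlapped each other, with log2 fold changes of 2.84 and 2.71 against hepatoblasts (standard errors 0.47 and 0.47, adjusted p = 0.000182 and 0.000172). The difference between them was 0.13 with a standard error of 0.44 (adjusted p = 0.812), and it turned to -0.05 without replicate 1 of Diff. hepatocytes. Cd36 is also made by macrophages and endothelial cells. The 9 macrophage markers summed to 343 CPM in hepatoblast replicate 1, the highest hepatoblast library for Cd36, against 81.5 to 94.6 CPM in the other hepatoblast libraries, to 22.2 to 135 CPM in Diff. hepatocytes and to 122 to 237 CPM in mature hepatocytes. The 8 endothelial markers summed to 34.6 to 138, 4.93 to 10.8 and 111 to 209 CPM in the groups in the same order, no marker of either list was at 0 throughout a group, and their part in the level of Cd36 was not tested. Without hepatoblast replicate 1 the log2 fold changes were 3.52 and 3.38.

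Cpt1a, the liver isoform of the acyltransferase that makes long-chain acylcarnitines and sets the pace of mitochondrial oxidation (ENSMUSG00000024900, chr19:3322334-3385733 on the plus strand), had 33.1, 30.5, 32.8 and 28.4 CPM in the hepatoblast libraries, 391, 557, 463 and 465 CPM in Diff. hepatocytes and 697, 842, 523 and 847 CPM in mature hepatocytes. It was the member with the largest rise in culture, 15-fold (log2 fold change 3.91, standard error 0.17, adjusted p = 1.3e-09), and 23.3-fold higher in mature hepatocytes (log2 fold change 4.54, standard error 0.17, adjusted p = 9.29e-11). Diff. hepatocyte replicate 2 lay above mature replicate 3, so these groups overlapped, and the difference of -0.63 between them was not called. Cpt1b, the muscle isoform of the same enzyme, was near the limit of these libraries. It had 1.26, 2.39, 2.27 and 1.49 CPM in the hepatoblast libraries, 1.86, 3.01, 2.58 and 2.51 CPM in Diff. hepatocytes and 0.686, 0.257, 0.117 and 0.124 CPM in mature hepatocytes, the last from 10, 4, 2 and 2 counts. Every mature library lay below every other library (log2 fold change -2.66, standard error 0.45, adjusted p = 0.000124 against hepatoblasts), and the embryonic and cultured libraries overlapped. Of its 75-base sequences 77.1% were also those of Gm44502, an overlapping gene model on the same strand whose counts were 0 in every library, so reads in common may have been left uncounted and the level of Cpt1b is uncertain. Of the 8 markers of fat and muscle cells only Tnnt2, a troponin gene, passed 1 CPM in any library, with 32.6 to 79.2 CPM in Diff. hepatocytes and less than 1 CPM elsewhere.

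Per kilobase of exon, Cpt1b made up 7.94, 15.1, 13.5 and 10.6 percent of the summed level of Cpt1a and Cpt1b in hepatoblast replicates 1 to 4, 1.07, 1.21, 1.25 and 1.21 percent in Diff. hepatocytes and 0.222, 0.069, 0.0505 and 0.0332 percent in mature hepatocytes. The share fell from a mean of 11.8% ± 3.15 to 1.18% ± 0.0793 and 0.0938% ± 0.087 (SD, n = 4, p = 0.0286, adjusted p = 0.0312 by exact permutation test in each of the 3 comparisons). Neither of the later steps of the shuttle was called in culture. Cpt2, which turns acylcarnitines back into acyl-CoA on the inner membrane, ranged over 57.7 to 80.8 CPM in the hepatoblast libraries, 54 to 64.3 CPM in Diff. hepatocytes and 190.2 to 248 CPM in mature hepatocytes, with log2 fold changes of -0.29 (adjusted p = 0.0554) and 1.56 (adjusted p = 9.9e-08). Slc25a20, the carrier that exchanges acylcarnitine for carnitine, ranged over 38.5 to 56.7, 55.9 to 66 and 142 to 187 CPM, with log2 fold changes of 0.26 (adjusted p = 0.09) and 1.74 (adjusted p = 5.05e-08). For both genes the embryonic and cultured libraries overlapped and the adult ones lay above, and with library totals neither was called in mature hepatocytes.

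The acyl-CoA dehydrogenases, which open each round of oxidation, each serve a range of chain lengths. Among the 4 members 1 was called higher in the cultured cells and 3 in the adult cells, counts of 0 and 1 with library totals. Acadvl, which acts on very long chains at the inner membrane, had 72.3, 86.8, 93.3 and 91.9 CPM in the hepatoblast libraries, 137, 190.1, 166 and 161 CPM in Diff. hepatocytes and 329, 278, 339.6 and 378 CPM in mature hepatocytes. The groups stood in steps without overlap, with 0.92 ± 0.12 in culture, just short of the threshold on the log2 scale, and 1.94 ± 0.13 in the adult (adjusted p = 2.88e-05 and 1.36e-08). Acads, which acts on short chains, had 91.2, 119.7, 131 and 132 CPM in the hepatoblast libraries, 91.1, 109, 94.2 and 104 CPM in Diff. hepatocytes and 298, 253, 276 and 336 CPM in mature hepatocytes. Only the adult libraries stood apart, with log2 fold change -1.54, standard error 0.13, adjusted p = 2.59e-07 for Diff. against mature hepatocytes. Acadm, which acts on medium chains, ranged over 117 to 178, 328 to 412 and 343 to 509 CPM. Its rise was 1.21 in culture and 1.45 in the adult (adjusted p = 2.16e-05 and 2.16e-06), with neither called under library totals (0.90 and 0.60), and the hepatocyte groups overlapped. Acadl, which acts on long chains, ranged over 181 to 259, 206 to 218 and 216 to 313 CPM and overlapped in all comparisons. Its log2 fold changes were -0.10 and 0.14, the latter turning to -0.71 with library totals.

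The hydratase, hydroxyacyl dehydrogenase and thiolase steps had no more calls for higher levels than the general share would give. With TMM that share was 14.9% of all tested genes in culture and 20.1% in the adult. Of 5 members none was called higher in Diff. hepatocytes, and only Acaa2 was called higher in mature hepatocytes, a call lost with library totals. Acaa2, the thiolase that releases acetyl-CoA from medium and short chains, had 313, 397, 444 and 475 CPM in the hepatoblast libraries, 319, 402, 338 and 357 CPM in Diff. hepatocytes and 1338, 1296, 1214 and 1496 CPM in mature hepatocytes. The embryonic and cultured libraries overlapped, and the adult mean was 3.28-fold that of hepatoblasts (log2 fold change 1.71, standard error 0.13, adjusted p = 7.62e-08). Hadh, the dehydrogenase for medium and short hydroxyacyl-CoA, had 307, 403, 474 and 479 CPM in the hepatoblast libraries, 187, 203, 199.9 and 199 CPM in Diff. hepatocytes and 392, 358, 329 and 462 CPM in mature hepatocytes. Every cultured library lay below every other library, and Hadh was called lower in Diff. hepatocytes than in hepatoblasts (log2 fold change -1.07, standard error 0.14, adjusted p = 2.42e-05). Against mature hepatocytes the difference of -0.97 (adjusted p = 4.84e-05) fell just short of the threshold on fold change. Without scaling Hadh held 9506 to 14626 counts per hepatoblast library, 4034 to 4718 per cultured library and 5581 to 7439 per mature library. The overlap of hepatoblasts and mature hepatocytes in CPM thus depends on the scaling. Hadha and Hadhb encode the subunits of the trifunctional protein, which carries out the last 3 steps on long chains, and lie head to head on chromosome 5 with their starts at 30155162 and 30155248. Hadha ranged over 259 to 330.4, 251 to 312 and 540.4 to 633 CPM and Hadhb over 57.6 to 76.2, 72.8 to 93.4 and 90 to 115 CPM. Their log2 fold changes in mature hepatocytes were 0.93 and 0.61, short of the threshold on fold change, and that of Hadhb turned to -0.24 with library totals. Of the 75-base sequences of Hadhb 16.7% were shared with other gene models, among them Gm13910 and Gm9108, so its level is uncertain. Echs1, the short-chain hydratase, had -0.05 in culture and 0.79 in the adult, the latter turning to -0.06 with library totals.

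The auxiliary enzymes for unsaturated chains, whose double bonds must be moved or reduced before the spiral can go on, were called higher in mature hepatocytes in 4 of 4 cases (3 of 4 with library totals, without Eci1) and in Diff. hepatocytes in 2 of 4 (1 of 4 with library totals, where Eci2 was at 0.84 and not called). Decr2, the peroxisomal dienoyl-CoA reductase (ENSMUSG00000036775, chr17:26081208-26090337 on the minus strand), had 24.3, 31.5, 34.5 and 34.2 CPM in the hepatoblast libraries, 105, 112, 112 and 104 CPM in Diff. hepatocytes and 312, 329.9, 289.9 and 404 CPM in mature hepatocytes. Decr1, its mitochondrial counterpart, had 44.7, 53.6, 58.6 and 63.3, then 89.1, 109, 93.5 and 92.6, then 264, 262, 227 and 267 CPM in the groups in the same order. Both stood in steps without overlap, Decr2 with 1.80 and 3.42 against hepatoblasts and Decr1 with 0.80, not called, and 2.21 (standard errors 0.11 to 0.14, adjusted p from 1.28e-10 to 3.69e-05). Eci2, an enoyl-CoA isomerase of peroxisomes and mitochondria (ENSMUSG00000021417, chr13:34977748-35027096 on the minus strand), had 25.5, 26.4, 24.3 and 23.6 CPM in the hepatoblast libraries, 51.2, 67.3, 52.1 and 52.8 CPM in Diff. hepatocytes and 227, 257, 169 and 304 CPM in mature hepatocytes. Eci1, the mitochondrial isomerase, had 61.4, 75.3, 84 and 89.5, then 55.6, 69.4, 67.5 and 66.2, then 195, 156, 173 and 196 CPM. Eci2 rose in steps (1.16 and 3.26, adjusted p = 2.43e-05 and 1.09e-09), whereas the cultured libraries of Eci1 overlapped the embryonic ones (-0.26, adjusted p = 0.084) and only its adult libraries stood above (1.22, adjusted p = 1.14e-06).

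Electron transfer from the dehydrogenases to the respiratory chain runs through the flavoprotein of Etfa and Etfb and its oxidoreductase Etfdh, and none of the 3 genes was called in Diff. hepatocytes. Etfdh had 81.1, 97.6, 103 and 102 CPM in the hepatoblast libraries, 141, 183, 155 and 159.8 CPM in Diff. hepatocytes and 463, 335, 398 and 435 CPM in mature hepatocytes. It stood in steps without overlap, with 0.74 in culture, short of the threshold on fold change, and 2.09 in the adult (standard errors 0.12 and 0.13, adjusted p = 0.000162 and 5.56e-09). Etfa ranged over 179.6 to 261, 222 to 320.3 and 397 to 466 CPM, with 0.93 in mature hepatocytes, not called. Etfb ranged over 26.5 to 36.8, 27 to 32.5 and 65.8 to 77.5 CPM and was called in mature hepatocytes (1.16, adjusted p = 2.94e-07), a call lost with library totals. Of its 75-base sequences 39.6% were also those of the overlapping model Gm45233, whose counts were 0 in every library, so its level is uncertain.

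The 7 peroxisomal members, the largest role, had the most calls in culture. All 7 were called higher in mature hepatocytes (6 of 7 with library totals, without Acox2), and 6 of 7 were called higher in Diff. hepatocytes, also with library totals. The median log2 fold changes of these 7 against hepatoblasts were 1.49 in culture and 2.84 in the adult. With TMM, 14.9% of all tested genes were called higher in culture and 20.1% in the adult. The 32 other peroxisomal genes tested did not share the lead in culture. Of them 34.4% were called higher there, with a median of 0.31, against 36.6% and 0.58 for all 101 related genes. Acaa1b, a thiolase of peroxisomes (ENSMUSG00000010651, chr9:119148023-119157093 on the minus strand), had 6.06, 5.79, 8.03 and 10.6 CPM in the hepatoblast libraries, 35, 73, 64.3 and 56.4 CPM in Diff. hepatocytes and 1679, 954, 1185 and 1761 CPM in mature hepatocytes. The groups stood far apart in steps, with a 7.5-fold rise in culture (log2 fold change 2.91, standard error 0.28, adjusted p = 1.31e-06) and a 183-fold rise in the adult (log2 fold change 7.51, standard error 0.34, adjusted p = 4.1e-10), the largest of any member. Between Diff. and mature hepatocytes the log2 difference was -4.61 ± 0.29 (adjusted p = 1.99e-08). Acaa1a, its paralog on the same chromosome (ENSMUSG00000036138, chr9:119339676-119350299 on the plus strand), had 49, 65.8, 68.4 and 68.2 CPM in the hepatoblast libraries, 89, 80.8, 92 and 76.4 CPM in Diff. hepatocytes and 286, 281, 209 and 329 CPM in mature hepatocytes. It rose by 2.14 in the adult (adjusted p = 2.07e-08), and its 0.43 in culture was not called (adjusted p = 0.0188) although no cultured library overlapped the embryonic ones.

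Per kilobase of exon, Acaa1b made up 21.8, 16.5, 20.9 and 26 percent of the summed level of Acaa1a and Acaa1b in hepatoblast replicates 1 to 4, 47, 67, 61.1 and 62.4 percent in Diff. hepatocytes and 93, 88.4, 92.7 and 92.3 percent in mature hepatocytes. Acaa1a was thus the main form in every hepatoblast library and Acaa1b in every mature library, with the cultured libraries between them and replicate 1, at 47 percent, as the cultured library in which Acaa1a still led. The mean share went from 21.3% ± 3.87 to 59.4% ± 8.66 and 91.6% ± 2.14 (SD, n = 4, p = 0.0286, adjusted p = 0.0312 by exact permutation test in each of the 3 comparisons). The genes share 24.4% of the 75-base sequences of Acaa1b and 9.5% of those of Acaa1a, and reads that fit both may be missing from either count, so the level of the share is uncertain.

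**Figure D3:**
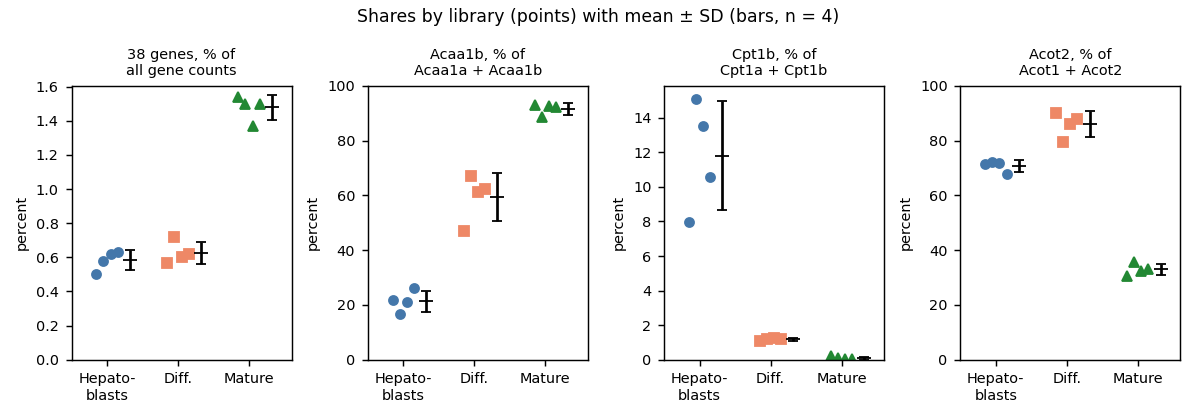
Percent per library (points) with the mean ± SD (bars, n = 4) for the share of all gene counts taken by the 38 genes and for the share of Acaa1b, Cpt1b and Acot2 within their isozyme pairs per kilobase of exon. The axes start at 0 and differ between panels, and the 3 groups do not overlap in the isozyme panels.

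Pex11a, which drives the division of peroxisomes (ENSMUSG00000030545, chr7:79735957-79743131 on the minus strand), had 3.03, 3.58, 3.27 and 4.44 CPM in the hepatoblast libraries, 30.2, 31.2, 32.6 and 36.6 CPM in Diff. hepatocytes and 153, 137, 92.7 and 159 CPM in mature hepatocytes. These steps without overlap came to 9.1-fold in culture and 37.8-fold in the adult (log2 fold changes 3.19 ± 0.18 and 5.24 ± 0.19, adjusted p = 9.22e-09 and 4.82e-11). Ehhadh and Hsd17b4, the bifunctional proteins of straight and of branched chains, ranged over 35.5 to 51.2, 131 to 267 and 305 to 652 CPM and over 85.4 to 113, 252 to 303 and 682 to 831 CPM. Ehhadh rose by 2.05 and 3.49 and Hsd17b4 by 1.38 and 2.84 on the log2 scale. Acad11, an acyl-CoA dehydrogenase of long chains, ranged over 55 to 83.8, 144 to 221 and 369.6 to 513 CPM, with 1.31 and 2.58. Acox2, the oxidase of branched chains and bile acid intermediates, ranged over 56.7 to 105, 177 to 224 and 175 to 316 CPM, with 1.49 and 1.77. The adjusted p of these 4 genes lay between 1.94e-10 and 5.17e-05. Acox2 was the peroxisomal member whose cultured and adult libraries overlapped, with a difference of -0.28 ± 0.21 (adjusted p = 0.263) that turned to 0.26 with library totals.

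The 3 ketone body members did not move as a group. None of the 3 was called higher in either hepatocyte group. Of 7 further ketone body genes outside the members, 3 were called higher and 0 lower in Diff. hepatocytes than in hepatoblasts. In mature hepatocytes 4 of these 7 were called higher and 1 lower. Of all tested genes 14.9% and 20.1% were called higher in these comparisons, and 14.0% and 24.7% lower. Bdh1, which reduces acetoacetate to hydroxybutyrate (ENSMUSG00000046598, chr16:31422280-31458901 on the plus strand), had 306, 409, 489 and 493 CPM in the hepatoblast libraries, 87.2, 153, 113 and 125 CPM in Diff. hepatocytes and 354, 375, 363 and 485 CPM in mature hepatocytes. With TMM the freshly isolated groups overlapped (-0.11, adjusted p = 0.617). Every cultured library lay below them, 3.55-fold lower than hepatoblasts (log2 fold change -1.83, standard error 0.19, adjusted p = 2.71e-06) and 3.29-fold lower than mature hepatocytes (log2 fold change -1.72, standard error 0.19, adjusted p = 3.38e-06). Without scaling Bdh1 held 9485 to 15110 counts per hepatoblast library, 2017 to 3547 per cultured library and 5163 to 7810 per mature library. On that scale the mature libraries lay below the hepatoblast ones, so the overlap of the fresh groups depends on the scaling. Oxct1, the transferase that lets other tissues use ketone bodies (ENSMUSG00000022186, chr15:4026383-4155344 on the plus strand), had 36.5, 23.5, 24.3 and 21.6 CPM in the hepatoblast libraries, 30.3, 13.8, 18.7 and 14.9 CPM in Diff. hepatocytes and 4.39, 2.95, 2.86 and 2.05 CPM in mature hepatocytes. Embryonic and cultured libraries overlapped (-0.45, adjusted p = 0.152), and the adult libraries were lower than all others, 8.66-fold below hepatoblasts (log2 fold change -3.12, standard error 0.30, adjusted p = 5.56e-07). Within their groups, replicate 1 of hepatoblasts and replicate 1 of Diff. hepatocytes were highest in Oxct1. They were also highest in the macrophage sum (343 and 135 CPM) and in the erythroid sum (3067 and 29.7 CPM). Replicate 1 of hepatoblasts was highest in the endothelial sum (138 CPM) and lowest in the mesenchymal sum (779 CPM) and the bile duct sum (27.4 CPM). Replicate 1 of Diff. hepatocytes was highest in the mesenchymal sum (3282 CPM) and the bile duct sum (305 CPM). In mature replicates 1 to 4, with Oxct1 at 4.39, 2.95, 2.86 and 2.05 CPM, the macrophage sums were 211, 123, 237 and 122 CPM. The erythroid sums of these libraries were 185, 159.5, 149.5 and 135 CPM. The mesenchymal sums of these libraries were 62.5, 59.4, 76.5 and 60.8 CPM. The part of any of these cell types in the level of Oxct1 was not tested. Without replicate 1 of hepatoblasts the log2 fold change in mature hepatocytes was -2.93. Acat1, the thiolase that forms and splits acetoacetyl-CoA, ranged over 217 to 339.8, 229 to 268 and 458 to 564 CPM, with -0.14 in culture and 0.92 in the adult, neither of which was called.

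**Figure D4:**
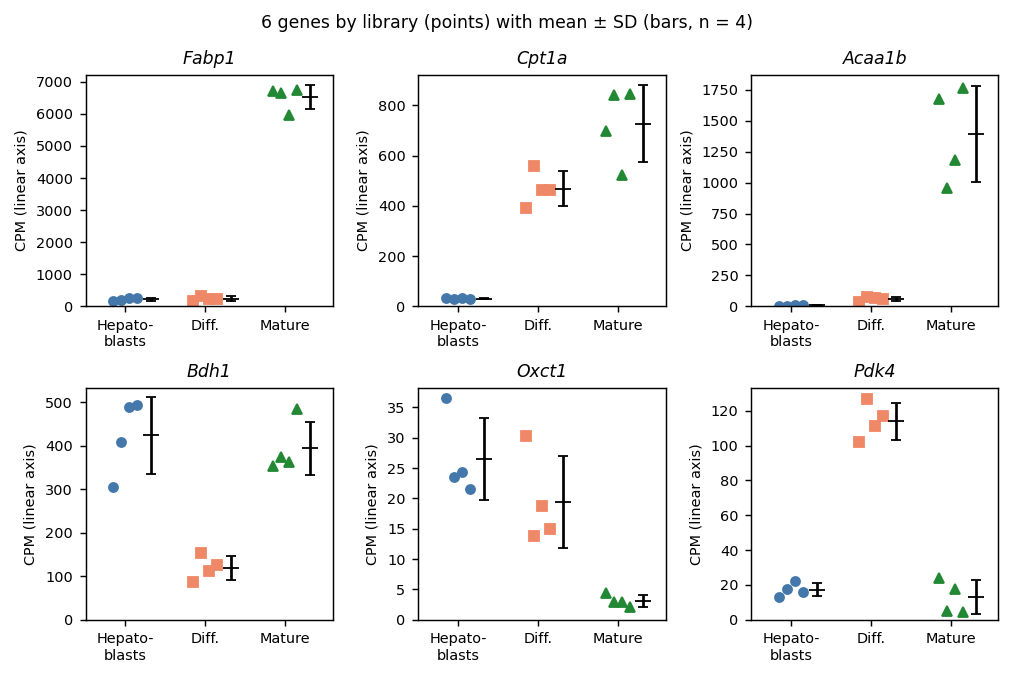
CPM of 6 genes in each library on linear axes from 0, with points for replicates 1 to 4 from left to right in each group and bars for the mean ± SD (n = 4). Fabp1 and Acaa1b are high in mature hepatocytes, Cpt1a is high in both hepatocyte groups, Bdh1 is low and Pdk4 high in Diff. hepatocytes, and Oxct1 is low in mature hepatocytes.

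The thioesterases, which release free acids from acyl-CoA, moved in opposite directions. Acot12, an acetyl-CoA hydrolase of liver cytosol (ENSMUSG00000021620, chr13:91741512-91786148 on the plus strand), had 11.7, 15.2, 15.2 and 16.2 CPM in the hepatoblast libraries, 37.8, 51.4, 43 and 47.8 CPM in Diff. hepatocytes and 147, 155, 120.1 and 183 CPM in mature hepatocytes. It rose in steps without overlap, by 1.63 ± 0.14 and 3.38 ± 0.15 (adjusted p = 6.23e-07 and 4.15e-10). Acot2, the mitochondrial enzyme (ENSMUSG00000021226, chr12:83987861-83993873 on the plus strand), had 46.1, 79, 80.4 and 63.1 CPM in the hepatoblast libraries, 35.9, 33.5, 35.5 and 34.5 CPM in Diff. hepatocytes and 10.1, 4.81, 3.33 and 6.46 CPM in mature hepatocytes. It stood in steps downward without overlap, 10.9-fold lower in the adult (log2 fold change -3.45, standard error 0.27, adjusted p = 8.82e-08), and its -0.95 in culture was short of the threshold on fold change, and was called where hepatoblast replicate 1 was left out (-1.08) or library totals were used (-1.26). Acot1, the cytosolic enzyme (ENSMUSG00000072949, chr12:84009490-84018371 on the plus strand), had 32.7, 54.9, 56 and 54 CPM in the hepatoblast libraries, 7.0, 15.6, 10.1 and 8.38 CPM in Diff. hepatocytes and 40.9, 15.6, 12.4 and 23.2 CPM in mature hepatocytes. All cultured libraries lay below the embryonic ones (log2 fold change -2.26, standard error 0.35, adjusted p = 9.88e-05). With TMM mature replicate 1 reached into the embryonic range. Without scaling it held 596 counts against 1015 to 1838 in the hepatoblast libraries. The lower call in the adult (log2 fold change -1.11, standard error 0.34, adjusted p = 0.00971) was lost in 8 of the 12 fits that left out a library and in the fit of the 8 libraries compared.

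Acot1 and Acot2 lie next to each other on chromosome 12 and share sequence with each other and with further Acot genes, 15% of the 75-base sequences of Acot1 and 21.2% of those of Acot2, so their counts are uncertain to that extent. Per kilobase of exon, Acot2 made up 71.5, 72, 71.9 and 67.6 percent of their summed level in hepatoblast replicates 1 to 4, 90.2, 79.3, 86.2 and 88 percent in Diff. hepatocytes and 30.7, 35.5, 32.4 and 33.2 percent in mature hepatocytes. Acot2 was the main form in all embryonic and cultured libraries and Acot1 in all adult ones. The means were 70.8% ± 2.12, 85.9% ± 4.71 and 33% ± 2.0 (SD, n = 4, p = 0.0286, adjusted p = 0.0312 by exact permutation test in each of the 3 comparisons).

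Pdk4 and Vnn1 are lipid-responsive genes at the edge of the pathway. Pdk4, the kinase that shuts pyruvate dehydrogenase when fat is burned (ENSMUSG00000019577, chr6:5483351-5496309 on the minus strand), had 13.2, 17.5, 22.3 and 15.7 CPM in the hepatoblast libraries, 102, 127, 111 and 117 CPM in Diff. hepatocytes and 24.1, 4.81, 17.8 and 4.41 CPM in mature hepatocytes. Every cultured library was far above every fresh library, 6.64-fold above hepatoblasts (log2 fold change 2.73, standard error 0.42, adjusted p = 9.05e-05) and 8.95-fold above mature hepatocytes (log2 fold change 3.16, standard error 0.44, adjusted p = 2.73e-05). With TMM the fresh groups overlapped, and the mature libraries split between replicates 1 and 3, inside or above the embryonic range, and replicates 2 and 4, below it. Without scaling Pdk4 held 408 to 689 counts per hepatoblast library and 71 to 351 per mature library, without overlap. Vnn1, a pantetheinase that recycles the vitamin part of coenzyme A (ENSMUSG00000037440, chr10:23894688-23905343 on the plus strand), had 4.68, 5.34, 6.51 and 5.87 CPM in the hepatoblast libraries, 61.1, 41.6, 36.7 and 33.8 CPM in Diff. hepatocytes and 45.3, 41.7, 45.8 and 74.3 CPM in mature hepatocytes. Both hepatocyte groups were above hepatoblasts, by 2.95 ± 0.23 and 3.21 ± 0.23 (adjusted p = 1.68e-07 and 3.17e-08), and overlapped each other (-0.26 ± 0.21, adjusted p = 0.293).

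Within each group the members could be ordered by TPM, which divides the counts of a gene by its exon length before scaling. Fabp1 came at the top in all groups, at a mean of 1352 ± 187 TPM in the hepatoblast libraries, 1067 ± 314 TPM in the cultured ones and 16601 ± 1719 TPM in the adult ones (SD, n = 4). In the adult it was the gene of rank 7 among all genes, against ranks 59 and 77 in hepatoblasts and Diff. hepatocytes. Acaa2 followed in all groups. After them came Etfa, Acadl and Bdh1 in hepatoblasts, Etfa, Acadl and Acadm in Diff. hepatocytes, and Acaa1b, Etfa and Hsd17b4 in mature hepatocytes. Bdh1 thus held place 5 among the 38 members in hepatoblasts, place 18 in the cultured cells and place 14 in the adult cells, and Acaa1b held places 34, 20 and 3. Cpt1b was the lowest member in all groups. Etfa and Acadl overlapped in their TPM in hepatoblasts, as did Etfa and Hsd17b4 in mature hepatocytes. With the longest transcript in place of all exon bases the top 5 members were the same genes in hepatoblasts, and 4 of 5 were in each of the other groups.

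Around the members, 101 further genes of the same pathways were tested as counts, in lists of uptake and activation, carnitine supply, other mitochondrial enzymes, other peroxisomal genes, ketone body genes and regulators. In Diff. hepatocytes 37 were called higher and 5 lower than in hepatoblasts, with a median log2 fold change of 0.58. These were 36.6% and 4.95%, against 14.9% and 14.0% of all tested genes, whose median was -0.01. In mature hepatocytes 74 were called higher and 8 lower, with a median of 1.66. That is 73.3% and 7.92%, against 20.1% and 24.7% of all tested genes with a median of -0.15. Diff. hepatocytes had 9 called higher and 59 lower than mature hepatocytes, with a median of -1.14. Here the shares were 8.91% and 58.4%, against 20.2% and 15.6% of all tested genes with a median of 0.09. With library totals these counts were 28 and 8, 44 and 12, and 16 and 34. The other peroxisomal genes had 11 of 32 called higher in culture and 24 of 32 in the adult. For the other mitochondrial enzymes these were 5 of 18 and 16 of 18, and for the regulators 9 of 17 and 11 of 17. For ketone body genes they were 3 of 7 and 4 of 7. Uptake and activation had 6 of 20 and 13 of 20, and carnitine supply 3 of 7 and 6 of 7. The shares of all tested genes called higher were 14.9% in culture and 20.1% in the adult.

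Named here are, for each comparison and direction, up to 3 called genes with the largest changes among those averaging 10 CPM or more in the 8 libraries compared, so genes of lower level with larger fold changes are left out. Ppargc1b, a coactivator of mitochondrial genes, rose in Diff. hepatocytes over hepatoblasts, from 1.97 ± 0.582 to 34 ± 1.48 CPM (SD, n = 4, log2 fold change 4.10 ± 0.24, adjusted p = 1.8e-08), as did Acacb, whose product makes the malonyl-CoA that inhibits Cpt1 (3.43 ± 0.24, adjusted p = 6.35e-08), and Acsm1, a medium-chain acyl-CoA synthetase (3.74 ± 0.22, adjusted p = 1.4e-08). Acot4, a peroxisomal thioesterase of the family of Acot1 and Acot2 (-2.86 ± 0.32, adjusted p = 6.12e-06), and Fabp5, a fatty acid binding protein of epidermis and other tissues (-1.61 ± 0.39, adjusted p = 0.0028), fell. Mature hepatocytes were highest over hepatoblasts in Acsm5 (9.80 ± 0.29, adjusted p = 8.28e-12), Acsm1 (6.92 ± 0.25, adjusted p = 4.65e-11) and Nudt7, a peroxisomal hydrolase of coenzyme A (6.44 ± 0.21, adjusted p = 1.73e-11). They were lower in Fabp5 (-4.26 ± 0.43, adjusted p = 1.03e-06), Slc16a1, a carrier of lactate and ketone bodies (-1.35 ± 0.17, adjusted p = 9.44e-06), and the coactivator Ppargc1a (-1.02 ± 0.22, adjusted p = 0.00107). Diff. hepatocytes exceeded mature hepatocytes in Fabp5 (2.65 ± 0.40, adjusted p = 6.76e-05), in Abcd2, a peroxisomal importer of acyl-CoA (2.22 ± 0.41, adjusted p = 0.000345), and in Ppargc1a (1.68 ± 0.23, adjusted p = 2.26e-05). They were below them in Acsm5 (-5.82 ± 0.22, adjusted p = 1.7e-10), Nudt7 (-4.77 ± 0.19, adjusted p = 2.41e-10) and Scp2, a sterol carrier with a thiolase for branched chains, at 220.5 ± 35.3 against 3872 ± 393 CPM (-4.13 ± 0.16, adjusted p = 2.45e-10). Fabp5 had 568, 748, 797 and 831 CPM in the hepatoblast libraries, 241, 229.6, 266 and 227 CPM in Diff. hepatocytes and 22.5, 53.5, 65.7 and 11.2 CPM in mature hepatocytes, without overlap between the groups.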

How the data were processed

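Poly(A) RNA of 12 libraries, 4 per group, had been read strand-specifically as single 75-base reads on a HiSeq 2500. The authors deposited raw counts of reads per Ensembl gene, made with STAR 2.5.2b on GRCm38. FastQC 0.11.2, Picard 2.10.2 and DESeq2 1.22.2 are further tools named in the submitters' processing notes or the methods, and the strand setting of the counting is not given in the sources used here. Reads that fit several genes may be missing from such counts. Library totals were 19581551 to 25216977, and this depth limits the precision of low genes such as Cpt1b.

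The 17779 genes whose count passed 10 in at least 1 library were fitted with edgeR 4.0.16 in R 4.3.3 (quasi-likelihood test, TMM scaling, group as the only term, all 12 libraries), and p-values were Benjamini-Hochberg adjusted over them. The script was tested on simulated data. Shares were compared by two-sided exact permutation tests. TPM and levels per kilobase used all exon bases of GENCODE M21. Promoter windows came from RefSeq (GRCm38.p6). Alternatives were other scalings, count filters, DESeq2 1.42.0, thresholds inside the test, the 8 libraries compared, a replicate block and leaving out libraries.

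Groups followed the labels, which do not say whether replicates are separate pools, cultures or animals, so p-values measure the spread between these samples. The members and lists were chosen with earlier results of these data known. Values in every library are given for members called with the largest change of their role in each direction and for isozyme pairs. Those of Acsl1, Cd36, Hadh, Bdh1, Pex11a, Pdk4 and the related gene Fabp5 were added after values were seen.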

Additional observations from a re-analysis of the deposited data

Results flagged for a closer look

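In 13 of 126 groups of 4 libraries, over the CPM of the members and their shares, 1 library lay apart from the other 3 by Dixon's 95% criterion, where chance gives about 6.3. Replicate 1 of hepatoblasts was that library 5 times. It had 10.5 CPM of Cd36 against 2.78 to 3.52 CPM in the others, and it was low in Slc25a20 (38.5 against 54.4 to 56.7 CPM), Hsd17b4 (85.4 against 109 to 113 CPM), Acaa1a (49.0 against 65.8 to 68.4 CPM) and Acot1 (32.7 against 54.0 to 56.0 CPM). This is the library with the highest erythroid, macrophage and endothelial sums of its group, whose part in these values was not tested. In Diff. hepatocytes, replicate 2 was high in Eci2 (67.3 against 51.2 to 52.8 CPM) and replicate 1 low in Acox2 (177 against 218 to 224 CPM). In mature hepatocytes, replicate 3 was low in Fabp1 (5966 against 6655 to 6735 CPM) and Decr1 (227 against 262 to 267 CPM). Replicate 4 was high in Bdh1 (485 against 354 to 375 CPM) and Vnn1 (74.3 against 41.7 to 45.8 CPM). The share of Acaa1b was 88.4% in mature replicate 2 against 92.3% to 93.0%, and the share of Acot2 was 67.6% in hepatoblast replicate 4 against 71.5% to 72.0%.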

How the results depend on the processing

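Of 2733 values of single members under the alternatives, 2582 kept their direction and their side of the threshold, 95 lost the call, 31 gained it and 25 changed sign. Scaling moved most. With library totals the members' medians were 0.11 (Diff. hepatocytes minus hepatoblasts), 0.88 (mature hepatocytes minus hepatoblasts) and -0.74 (Diff. minus mature hepatocytes), and without the 50 most abundant genes in the totals the last 2 were 1.06 and -0.71. Members called between Diff. and mature hepatocytes then numbered 15 and 14, against 27. The related genes called lower and higher there were 34 and 16 with totals and 33 and 16 without the 50 genes, against 59 and 9.

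With totals, Fabp1 (-0.16), Slc25a20 (-0.05), Hadhb (-0.06) and Etfa (-0.07) changed sign in Diff. hepatocytes against hepatoblasts, and Acadl (-0.71), Hadhb (-0.24) and Echs1 (-0.06) in mature hepatocytes. Between Diff. and mature hepatocytes, Acadm (0.30), Acadl (0.30), Hadhb (0.17), Acox2 (0.26) and Vnn1 (0.29) did so. Without the 50 genes the values that changed sign were -0.53 for Acadl and -0.06 for Hadhb in mature hepatocytes, and 0.33 for Acadm, 0.33 for Acadl, 0.20 for Hadhb, 0.28 for Acox2 and 0.32 for Vnn1 in the last comparison. With the fold threshold inside the test, the related genes called in Diff. hepatocytes against hepatoblasts fell from 42 to 23 (DESeq2) or 25 (edgeR), and those between Diff. and mature hepatocytes from 68 to 40 (DESeq2). At an adjusted p of 0.05 without a fold threshold the first count was 75.

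Leaving out each library gave 18 to 19, 28 to 30 and 26 to 29 members called in the comparisons in the order above. Cd36 ranged from -0.07 to 0.51 between Diff. and mature hepatocytes, and was -0.03 without replicate 1 of hepatoblasts and of Diff. hepatocytes, an alternative chosen after seeing the data. Against hepatoblasts, Fabp1 ranged from -0.07 to 0.29 and Echs1 from -0.15 to 0.01 in Diff. hepatocytes. The causes were not tested.

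Groups share replicate numbers, but nothing says that they pair samples. Hepatoblasts and Diff. hepatocytes of the same number had correlations of deviations of 0.324, -0.059, 0.246 and 0.184. Those of different numbers ranged from -0.352 to 0.242. These correlations cannot settle whether the numbers pair samples. The numbers were not taken as pairs because no label pairs them. A replicate block gave 18, 28 and 27 members called, 43, 82 and 68 related genes called, and medians of 0.44, 1.74 and -1.28, and Acot1 lost its call in mature hepatocytes. Depth limits Cpt1b, whose mature libraries held 10 counts or fewer.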
